A study of Homo sapiens with 2 samples.

Results

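YAP1, WWTR1 (the gene of TAZ), their DNA-binding partner TEAD1 and 7 genes known as their targets or regulators were described in a temozolomide-resistant clone of A172 and in its parental line. A172 is an established human glioblastoma cell line, and temozolomide (TMZ) is the alkylating drug used against this tumour. The genes were taken by name and gave 10 rows of the 15603 genes in the deposited table. They were the coactivators YAP1 and WWTR1, the factor TEAD1, the targets ANKRD1, CYR61, CTGF and F3, and the regulators WWC1, AMOTL1 and AMOTL2, each of which acts on YAP or on its kinases and is itself known as a target in some cells. CYR61 and CTGF are the older names of CCN1 and CCN2. The group was chosen by the FPKM of these same 2 libraries, so the values below describe 2 libraries and are no independent evidence that the pathway differs.

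The resistant group is 1 library of clone A172-r#6, labelled as kept with TMZ. The parental group is 1 library of A172 labelled as kept without it. Both come from the same line, and no genetic change is named for either. Clone, selection and drug exposure differ together, so their parts cannot be told apart, and with 1 library in each group no difference has a replicate check and no p-value was computed. A group that is 1 clone also shows that clone and not resistant cells in general.

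YAP and TAZ are transcription coactivators with no DNA-binding domain of their own. They reach DNA through the TEAD factors. The Hippo kinases MST and LATS phosphorylate them, which keeps them in the cytoplasm or marks them for degradation, so their activity is set largely by where the proteins are and much less by how much of their mRNA is made. A stiff matrix, cell spreading and tension on the actin cytoskeleton bring them into the nucleus. The mRNA levels of ANKRD1, CYR61 and CTGF are commonly read as a measure of that activity, and in glioblastoma the pair has been linked to the mesenchymal state.

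Levels are FPKM, fragments corrected for transcript length and for library size. Genes can be set side by side within a library, while a comparison between libraries also depends on the scaling, because the sums of FPKM differ. A fold is log2 of (resistant FPKM + 1) over (parental FPKM + 1). Genes with at least 1 FPKM in either library were tested, 13937 in all, and a gene is called higher or lower in the resistant clone when it differs at least 2-fold on that scale. Of the tested genes 640 (4.59%) were called higher and 532 (3.82%) lower, with a median log2 fold of 0.04. With both libraries scaled to the same sum at the FPKM scale, an alternative added after seeing the data, 506 were called higher and 658 lower, and the median was -0.06. The FPKM summed to 323932 in the resistant and 299594 in the parental library, and 182 and 111 genes were listed at 0 in them. All 10 members were tested and none was listed at 0. Of glioma and astroglial markers, vimentin (VIM, 804 FPKM in the resistant and 632 in the parental library), CD44 (161 and 83.1) and EGFR (63.2 and 36.8) were abundant. Nestin (NES) had 5.08 and 33.7 and SOX2 0.253 and 2.23, and both were called lower. They were 2 of the 6 tested markers of this list (33.3%), and none was called higher. OLIG2 had 3.42 and 1.43 and was not called, while GFAP, S100B and AQP4 were not among the rows analysed here. Of the markers of other cell types, 3 of 5 endothelial ones were analysed and summed to 1.73 FPKM in the resistant and 11 in the parental library. Among them TEK was called lower (1.56 and 9.53). Of the immune ones, 2 of 4 were analysed and summed to 0.919 and 2.52. The 4 of 5 epithelial markers summed to 1609 and 607, mostly keratins 8 and 18, with KRT8 called higher (905 and 213). The 5 fibroblast and smooth muscle markers summed to 54.5 and 67.8, with 1 called higher and 2 lower, COL1A1 among the lower (6.53 and 33.5). The 1 of 4 neuronal markers analysed had 60.6 and 91.3 and was not called. The 2 of 4 muscle markers summed to 1.92 and 3.40, with 1 called lower and none higher. The part of other cell types in the results was not tested.

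Among the 10 members, 4 were called higher in the resistant clone and none lower, beside 4.59% and 3.82% of all tested genes. The 4 were ANKRD1, F3, WWC1 and CYR61. In bulk RNA, more cells that express a gene and more of its RNA per cell cannot be told apart. Neither coactivator was called, nor was TEAD1, and WWTR1 and CTGF had the lowest folds of the group. The median log2 fold of the members was 0.37, with 7 above 0 and 3 below it. Among the 13937 tested genes 7431 were above 0 and 6506 below it. YAP1 is 1 of the 7, with a log2 fold of 0.05 whose sign followed the scaling.

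**Figure D1:**
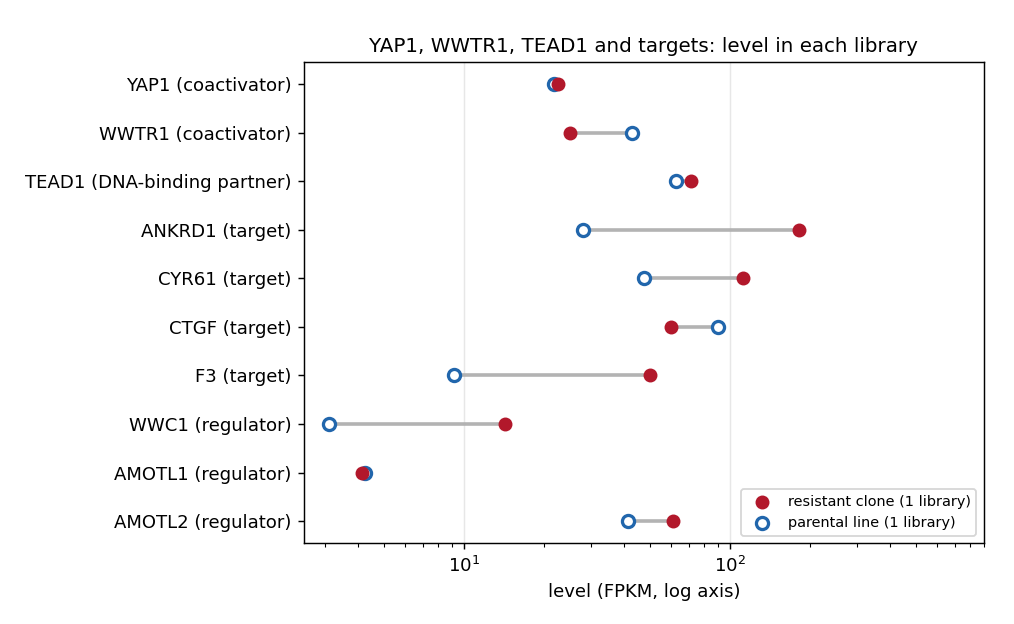
Level of each member in the resistant clone (filled red) and in the parental line (open blue), in FPKM on a log axis, with 1 library each and a grey bar joining the pair. ANKRD1, F3, WWC1 and CYR61 lie well to the right in the resistant library, WWTR1 and CTGF lie to the left, and YAP1 and AMOTL1 nearly coincide.

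The coactivators were described first. YAP1 (ENSG00000137693, chromosome 11, 102110461 to 102233423, GRCh38, plus strand) had 22.6 FPKM in the resistant and 21.7 in the parental library, a log2 fold of 0.05. The sign of so small a fold followed the scaling, and with the libraries brought to the same sum it was -0.05. Its rank by fold was 6849 of the tested genes, near the middle.

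WWTR1 (ENSG00000018408, chromosome 3, 149517235 to 149736714, minus strand) had 25.1 FPKM in the resistant and 42.9 in the parental library, a log2 fold of -0.75. This is short of the 2-fold threshold, and 7.68% of tested genes had a lower fold. In the authors' deposited table its q-value was 0.0931. Per length, YAP1 mRNA stood at 0.898 of the WWTR1 level in the resistant library and at 0.507 of it in the parental one, so the 2 mRNAs were closer in level in the clone. Their summed level was 47.7 FPKM in the resistant and 64.6 in the parental library.

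TEAD1 (ENSG00000187079, chromosome 11, 12674591 to 12944483, plus strand), the DNA-binding partner, had 71.5 FPKM in the resistant and 62.5 in the parental library, with a log2 fold of 0.19. It was the most abundant TEAD gene in both. TEAD2 had 8.71 and 13 FPKM, TEAD3 8.53 and 5.56, and TEAD4 3.56 and 2.39, none of them called. TEAD1 made up 77.5% of the summed TEAD level in the resistant and 74.9% in the parental library, so the make-up of the family was much the same. VGLL4, a cofactor that competes with YAP and TAZ for TEAD, had 13.5 FPKM in the resistant and 19.0 in the parental library (log2 fold -0.47). Its exons overlap those of ATG7 on the opposite strand, and whether counting used strand is not given in the sources used here. VGLL1, VGLL2 and VGLL3 were not analysed here.

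ANKRD1 encodes a muscle ankyrin repeat protein that moves between the sarcomere or cytoplasm and the nucleus, and it is one of the most used readouts of YAP activity. ANKRD1 (ENSG00000148677, chromosome 10, 90912096 to 90921276, minus strand) had 182 FPKM in the resistant and 27.9 in the parental library, a 6.53-fold difference (log2 fold 2.66). It was the most abundant member in the clone, at rank 207 of all genes by level, against rank 2295 in the parental line. Only 10 tested genes had a higher fold. By fold the genes nearest to it among the 9599 with at least 5 FPKM in the higher library were the receptor kinase MET and the TNF-family ligand CD70, whose log2 folds were 0.20 and 0.05 above that of ANKRD1, and the readthrough gene ATP6V1G2-DDX39B and the DNA repair gene MGMT, with differences of -0.03 and -0.04. The readthrough gene shares exons with its partner, and MGMT was listed at 0 in the parental library, so both folds are uncertain. Likeness over 2 libraries is a likeness of 1 number only. ANKRD23, of the same ankyrin repeat family, had 1.10 FPKM in the resistant and 1.09 in the parental library. Its exons overlap those of ANKRD39 on the same strand (5.23 and 3.48 FPKM) and of CNNM3 on the opposite strand (10.1 and 8.44), so its level is uncertain.

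F3 encodes tissue factor, the cell surface receptor that starts blood coagulation, and its expression by glioma cells is known. F3 (ENSG00000117525, chromosome 1, 94529225 to 94541800, minus strand) had 49.8 FPKM in the resistant and 9.12 in the parental library, 5.46-fold higher in the clone (log2 fold 2.33). It stood at rank 1182 by level in the resistant library and at rank 6643 in the parental one. By fold it was rank 29 of the tested genes.

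CYR61 and CTGF are members of the CCN family of secreted matricellular proteins, and both are classical YAP targets. Their folds had opposite signs. CYR61 (ENSG00000142871, chromosome 1, 85580761 to 85583962, plus strand) had 112 FPKM in the resistant and 47.4 in the parental library, 2.37-fold higher (log2 fold 1.22). CTGF (ENSG00000118523, chromosome 6, 131948176 to 131951373, minus strand) had 59.8 FPKM in the resistant and 90.0 in the parental library, a log2 fold of -0.58 that is not called. Per length, CYR61 stood at 1.88 times CTGF in the clone and at 0.527 times CTGF in the parental line. CTGF was the most abundant member in the parental library and stood behind ANKRD1, CYR61, TEAD1 and AMOTL2 in the clone. ANKRD1 stood at 3.05 times CTGF in the clone and at 0.310 times CTGF in the parental line. Another family member, NOV (CCN3), which has been described as opposing CTGF in several tissues, had 10.4 FPKM in the resistant and 3.01 in the parental library and was called higher, at a plain FPKM ratio of 3.44. The WISP genes of the family were not analysed here. Of the 8 tested relatives of the members, over all their families, NOV was the 1 called higher (12.5%) and none was called lower. Of all tested genes 4.59% were called higher and 3.82% lower.

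The promoters of ANKRD1, CTGF and F3 are printed because these 3 members held the most motif matches and had different folds. Each is the RefSeq window (GRCh38.p14) from 250 bases before the start of the gene to 50 after it, 5′ to 3′ on the strand of the gene. Capitals mark matches to the TEAD motif GGAATG or the AP-1 motif TGANTCA, searched on both strands. The windows lie at chr10:90921038-90921337 (minus strand) for ANKRD1, chr6:131951323-131951622 (minus strand) for CTGF and chr1:94541710-94542009 (minus strand) for F3.
ANKRD1: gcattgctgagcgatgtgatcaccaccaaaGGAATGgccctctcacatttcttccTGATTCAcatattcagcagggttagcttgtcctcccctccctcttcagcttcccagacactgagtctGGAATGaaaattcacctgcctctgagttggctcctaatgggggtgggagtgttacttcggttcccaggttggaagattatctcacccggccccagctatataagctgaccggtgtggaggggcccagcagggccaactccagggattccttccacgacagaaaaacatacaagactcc
CTGF: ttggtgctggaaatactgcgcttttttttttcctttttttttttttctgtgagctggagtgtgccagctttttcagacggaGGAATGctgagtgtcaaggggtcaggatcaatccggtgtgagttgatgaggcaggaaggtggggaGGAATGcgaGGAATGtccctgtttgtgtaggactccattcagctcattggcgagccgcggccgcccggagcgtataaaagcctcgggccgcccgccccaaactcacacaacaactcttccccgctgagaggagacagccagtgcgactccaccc
F3: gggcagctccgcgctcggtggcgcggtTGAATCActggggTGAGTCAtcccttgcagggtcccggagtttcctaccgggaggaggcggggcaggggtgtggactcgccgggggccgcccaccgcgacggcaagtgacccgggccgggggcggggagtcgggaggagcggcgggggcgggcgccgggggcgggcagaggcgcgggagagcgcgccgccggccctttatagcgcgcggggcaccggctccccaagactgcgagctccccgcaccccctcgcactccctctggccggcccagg

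The CTGF window held 3 matches to the TEAD motif, starting 169, 104 and 95 bases before the gene's start, all on the strand of the gene. The ANKRD1 window held 2, at 220 and 128 bases, and 1 AP-1 match between them at 195 bases. The F3 window held no TEAD match and 2 AP-1 matches, at 223 and 210 bases. CTGF, with the most TEAD matches, had a lower level in the clone, short of the threshold. ANKRD1, with 2, had the largest fold of the group, and F3, with none in this window, had the second. These 3 were picked partly for their different folds, and whether matches go with folds was not tested. Of 10 RefSeq windows that matched 8 of the members, 4 (40.0%) held a TEAD match, where 12.2% of 22199 windows of protein-coding genes did. Those 4 were ANKRD1, CTGF, YAP1 and 1 of 2 windows of AMOTL2. Most members were listed as known targets of YAP and TAZ, so this share beside that of all genes is no independent support. An AP-1 match was in 2 of the 10, against 6.15% of protein-coding windows. The CArG box of SRF was in none of the 10 windows and in 1.25% of the protein-coding ones. TEAD1 and CYR61 had no entry. YAP and TAZ are known to act mostly through distant enhancers, which this window does not hold.

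WWC1, also called KIBRA, is a scaffold that brings the LATS kinases into an active complex, and so restrains YAP. WWC1 (ENSG00000113645, chromosome 5, 168291651 to 168472303, plus strand) had 14.2 FPKM in the resistant and 3.11 in the parental library, 4.55-fold higher (log2 fold 1.88). At this level the pseudocount shrinks the fold, and the plain log2 ratio was 2.19. It was the least abundant member in the parental line and passed AMOTL1 in the clone. Its relatives WWC2, with 20.7 FPKM in the resistant and 20.2 in the parental library, and WWC3, with 19.2 and 9.90 (log2 fold 0.89), were not called. In the parental library WWC1 was thus far below both relatives, and in the clone it was nearer to them.

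AMOTL1 and AMOTL2 are angiomotin-family proteins of cell junctions and actin that bind YAP and hold it outside the nucleus. AMOTL2 (ENSG00000114019, chromosome 3, 134355874 to 134375479, minus strand) had 61.1 FPKM in the resistant and 41.4 in the parental library, a log2 fold of 0.55 short of the threshold. AMOTL1 (ENSG00000166025, chromosome 11, 94706431 to 94876753, plus strand) had 4.12 FPKM in the resistant and 4.22 in the parental library (log2 fold -0.03). AMOT itself was at 1.49 and 1.85 FPKM. AMOTL2 was the main family member in both libraries, at 14.8 times AMOTL1 in the clone and 9.80 times AMOTL1 in the parental line.

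**Figure D2:**
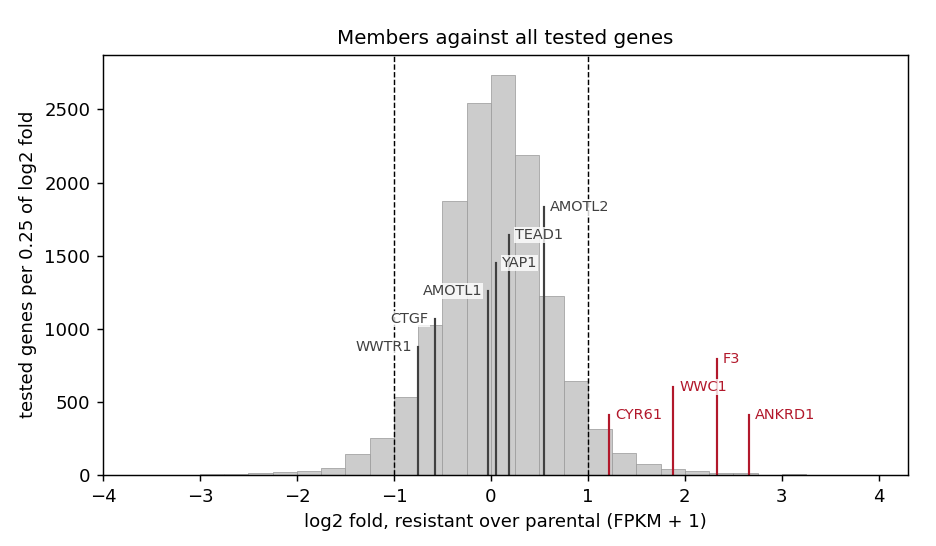
Number of tested genes (grey bars) by log2 fold of resistant over parental, with each member's fold as a labelled line and the 2-fold threshold dashed. ANKRD1 (2.66), F3 (2.33), WWC1 (1.88) and CYR61 (1.22) lie in the right tail, and the other 6 members lie between -0.75 and 0.55. The height of the lines has no meaning, and the axis leaves out the few genes below -4.

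In the authors' deposited table, 801 genes (5.13%) had a q-value under 0.05 and a higher level in the resistant library, and 621 (3.98%) a lower one. The same 4 members were among the first, and none was among the second. The authors' deposited table gives a q-value of 2.93e-08 for ANKRD1, 3.23e-07 for F3 and 0.0215 for CYR61, and lists it at 0 for WWC1, as for 26 genes in all. In the authors' deposited table AMOTL2 had a q-value of 0.0604, CTGF 0.414, TEAD1 0.771, YAP1 0.942 and AMOTL1 0.962. Their test is not named in the sources used here. Whatever the test, each group is 1 library, so these values speak of the 2 libraries and not of resistance.

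Other known targets were read from a 22-gene signature of YAP and TAZ targets in tumours, of which 21 were tested and 5 are also members (FOXF2 was not analysed here). Of the 21, 6 were called higher and none lower, with a median log2 fold of 0.61. A fold above 0 was found for 17 of them, and for 7431 of the 13937 tested genes. Without the 5 members, 3 of 16 (18.8%) were called higher, with a median of 0.56, against 4.59% and 0.04 over all tested genes. The largest fold was that of GADD45A, a growth arrest gene that p53 also activates, with 85.9 FPKM in the resistant and 14.2 in the parental library (log2 fold 2.51). NUAK2, a kinase of the AMPK family that YAP induces, had 26.5 FPKM in the resistant and 7.55 in the parental library (1.68). NT5E, the cell surface enzyme CD73, had 51.9 and 22.6 FPKM (1.16) and was named after its values were seen.

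Of the signature genes short of the threshold, also named after their values were seen, ASAP1 had 24.3 FPKM in the resistant and 11.7 in the parental library, just under 2-fold on the scale used. The receptor kinase AXL had 94.6 and 53.0 FPKM (log2 fold 0.82) and CRIM1 165 and 99.0 (0.73). Those with folds below 0 were ARHGEF17 (17.3 FPKM in the resistant and 26.6 in the parental library), CTGF, PTPN14 (32.6 and 42.9) and IGFBP3 (28.2 and 29.3). ARHGEF17 overlaps exons of AP002761.3 on the opposite strand (0.985 and 1.63 FPKM). Promoter windows matched 15 of the signature genes, with 17 windows in all. Of these windows 8 (47.1%), from 8 genes, held a TEAD match, beside 12.2% of 22199 windows of protein-coding genes. The signature lists known targets of YAP and TAZ, so this share is no independent support. NUAK2 had 2 matches, AXL had 1 match in 1 of its 2 windows, and the window of NT5E had none.

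**Figure D3:**
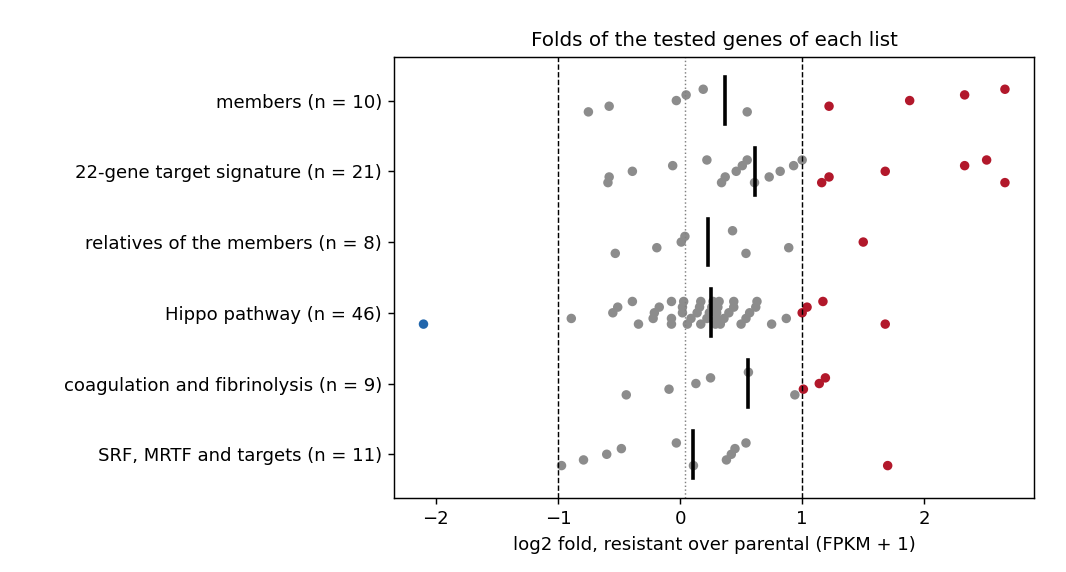
Log2 fold of resistant over parental for each tested gene of 6 lists, with called genes in red (higher) or blue (lower), the list's median as a black bar, the median of all tested genes dotted and the 2-fold threshold dashed. The vertical scatter within a list has no meaning. The medians are 0.37 for the members, 0.61 for the target signature, 0.23 for the relatives, 0.25 for the Hippo pathway, 0.56 for coagulation and fibrinolysis and 0.11 for SRF and its targets.

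The Hippo pathway upstream of YAP was read from a list of 49 genes, of which 46 were tested. Of these 4 (8.70%) were called higher and 1 (2.17%) lower, beside 4.59% and 3.82% of all tested genes, and the median log2 fold was 0.25. This list overlaps the target signature in NUAK2, LATS2 and PTPN14, so the higher call of NUAK2 is counted in both. None of the core kinases of the cassette was called. STK3, the gene of MST2, had 8.74 FPKM in the resistant and 8.54 in the parental library, and STK4, the gene of MST1, had 13.8 and 8.64 (log2 fold 0.62). LATS1 had 9.88 FPKM in the resistant and 8.04 in the parental library, and LATS2, which is itself a YAP target, 7.06 and 5.93. These core kinases were named after their values were seen. The adaptors SAV1, MOB1A and MOB1B and the 4 genes listed for degradation of YAP and TAZ had no call either, with folds from -0.07 to 0.57. The adaptors and CSNK1D, 1 of the 4 for degradation, were named after their values were seen. MOB1B overlaps exons of DCK on the same strand. SAV1 overlaps exons of ATL1, and CSNK1D those of SLC16A3, on the opposite strand, so these levels are less certain.

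The Hippo gene called lower was DCHS1, a large protocadherin that pairs with FAT4 at cell contacts, with 1.34 FPKM in the resistant and 9.01 in the parental library (log2 fold -2.10). FAT4, chosen after its value was seen, had 3.58 and 3.82. RASSF5, a partner of the MST kinases also named after its values were seen, had 0.405 FPKM in the resistant and 1.61 in the parental library. Its log2 fold of -0.89 was not called, and with a pseudocount of 0.1 or 0.5 or by plain ratio the lower Hippo calls were 2. Beside NUAK2, the genes called higher were STRIP2, a subunit of the STRIPAK phosphatase complex that acts on MST (2.92 FPKM in the resistant and 0.740 in the parental library, log2 fold 1.17), the cell polarity scaffold PATJ (8.69 and 3.73, 1.04) and AJUBA. AJUBA, a LIM protein that binds LATS at junctions under tension, had 50.8 FPKM in the resistant and 24.8 in the parental library. Its plain FPKM ratio was 2.05 and its log2 fold lies at the threshold, and it was named after its values were seen. AJUBA also overlaps exons of AL132780.3 on the same strand, which had 4.09 and 5.57 FPKM. With both libraries scaled to the same median, upper quartile or sum at the FPKM scale, 2 Hippo genes were called higher.

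Tissue factor works with other genes of coagulation and fibrinolysis. Of 18 listed genes 9 were tested, with 3 (33.3%) called higher, none lower and a median log2 fold of 0.56, beside 4.59% higher and 3.82% lower of all tested genes. SERPINE2, a protease inhibitor that acts on thrombin and on plasminogen activators, had 152 FPKM in the resistant and 68.6 in the parental library (log2 fold 1.14). PLAT, the tissue plasminogen activator, had 314 and 164 FPKM (0.94) and was not called. The urokinase gene PLAU had 9.74 FPKM in the resistant and 3.72 in the parental library (1.19). TFPI2 was at 1.66 and 0.32 FPKM (1.01) and overlaps the exons of GNGT1 on the opposite strand. Its call sits at the threshold. With both libraries scaled to the same median, upper quartile or sum at the FPKM scale, or with a filter of 5 FPKM, 2 genes of the list were called higher. TFPI, the direct inhibitor of tissue factor, had 192 FPKM in the resistant and 205 in the parental library and was chosen after its value was seen. F3 therefore stood at a higher level relative to TFPI in the clone, though below it in both libraries. The coagulation factors F7 and F10, which tissue factor engages, were not analysed here.

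SRF with its cofactors MRTF-A and MRTF-B is a second activator of CYR61, CTGF and ANKRD1, and it responds to actin. Of 11 tested genes of that list 1 (9.09%) was called higher and none lower, beside 4.59% and 3.82% of all tested genes, with a median log2 fold of 0.11. SRF had 7.31 FPKM in the resistant and 5.22 in the parental library, MKL1 (MRTF-A) 11.7 and 10.8, and MKL2 (MRTF-B) 17.5 and 24.7, the 3 factors being named after their values were seen. The one call was ACTA2, smooth muscle actin, with 5.30 FPKM in the resistant and 0.945 in the parental library (log2 fold 1.70). ACTA2 overlaps the exons of FAS on the opposite strand, and FAS had 6.32 and 2.09 FPKM, so with counting that ignored strand the pair could not be told apart. Of the 8 tested targets 4 had a fold above 0 and 4 below it. Vinculin (VCL) had 52.9 FPKM in the resistant and 105 in the parental library (-0.97), TAGLN 14.3 and 25.5 (-0.79) and TPM1 250 and 380 (-0.60), none of them called. VCL, TAGLN, TPM1 and MKL1 also overlap exons of genes on the opposite strand, which are AP3M1 (20.9 and 28.1 FPKM), PCSK7 (7.71 and 10.4), AC079328.2 (0 and 1.28) and SGSM3 (6.91 and 11.2). With the libraries scaled to the same median, upper quartile or sum, 1 gene of the list was called lower. Of the targets with folds above 0, named after their values were seen, TPM2 had 24.2 FPKM in the resistant and 16.3 in the parental library (0.54), FLNA 932 and 718 (0.38) and CNN1 1.12 and 0.554 (0.45).

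Position on the chromosome was looked at because selection of a clone can bring gains and losses of DNA, and the choice of members did not use it. For each member the 5 tested genes on either side were read, 100 neighbours in all, of which 11 were called higher and 5 lower, beside 4.59% and 3.82% of all tested genes. None of the 10 neighbours of ANKRD1 passed the threshold (log2 folds of -0.54 to 0.83). The neighbours of WWC1 had a median of -0.40, with 2 called lower and none higher. Around WWTR1 the median was -0.57, close to the fold of WWTR1 itself, but the log2 folds ran from -1.87 to 0.45. Of these 10 neighbours 6 had a higher fold than WWTR1. Among them 1 neighbour, TM4SF1, was called lower (11.6 FPKM in the resistant and 45 in the parental library).

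F3 and CYR61, both on chromosome 1, and TEAD1, on chromosome 11, each had 3 neighbours called higher. Beside F3 these were BCAR3 (37.0 FPKM in the resistant and 7.72 in the parental library, log2 fold 2.12), ARHGAP29 (40.9 and 14.5, 1.44) and GCLM (15.1 and 5.50, 1.31). The neighbour on the same side that is nearest to F3, ABCD3, had 14.7 and 17.2 FPKM (-0.21) and was not called. On the other side RP4-639F20.1 was called lower (0.524 FPKM in the resistant and 3.36 in the parental library, -1.52). Beside CYR61 they were DDAH1 (14.9 FPKM in the resistant and 4.49 in the parental library, 1.53), BCL10 (10.7 and 4.83, 1.01) and the noncoding RP4-621F18.2 (6.81 and 2.42, 1.19), which share 1 merged locus in the deposited table. Beside TEAD1, which was not called itself, they were MICAL2 (161 FPKM in the resistant and 56.5 in the parental library, 1.49), RRAS2 (88.4 and 31.0, 1.48) and MICALCL (2.54 and 0.424, 1.31). YAP1 and CTGF had 1 such neighbour each, MMP3 (9.39 FPKM in the resistant and 0.146 in the parental library, 3.18) and RPS12 (102 and 47.6, 1.09), and ENPP1 beside CTGF was called lower (log2 fold -1.50). Neighbours were named after their values were seen, and the part of copy number was not tested. No member shared exons with another gene of the table.

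**Figure D4:**
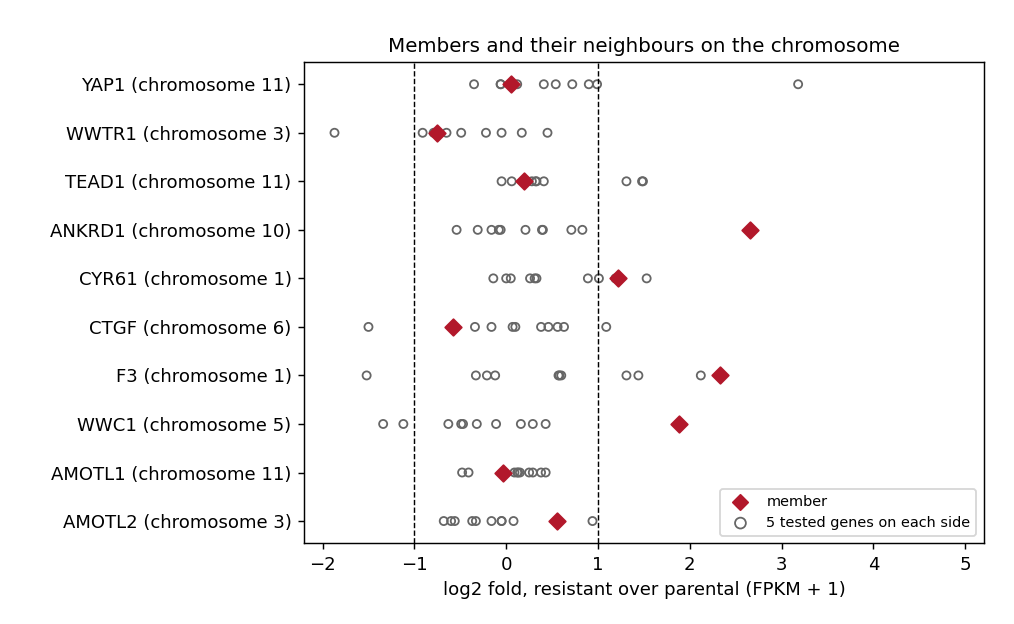
Log2 fold of resistant over parental for each member (red diamonds) and for the 5 tested genes on each side of it by the locus in the deposited table (open circles), with the 2-fold threshold dashed. The diamonds of ANKRD1, F3 and WWC1 lie to the right of all 10 of their neighbours, and circles lie past the higher threshold beside F3, CYR61, TEAD1, YAP1 and CTGF.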

How the data were processed

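RNA of 2 A172 cultures was sequenced with a stranded mRNA library kit, per the labels. The deposited table gives FPKM for each library, made by the authors, beside a log2 ratio (resistant over parental), a p-value and a q-value for each gene, per the file headers. How reads were aligned, quantified, scaled and tested, and whether strand was used, is not given in the sources used here. Every gene reached 0.544 FPKM in 1 library or both, so genes with low values appear to have been left out before deposit.

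Sequencing depth is unknown. Low FPKM of genes with 1 transcript, multiplied by transcript length, lay within 0.1 of a whole multiple of the best step for 28.5% of 200 values in the resistant and 30.5% in the parental library, where 20% would by chance at 1 step, so no fragment counts were recovered and no counting interval is given.

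Folds used a pseudocount of 1 and a filter of 1 FPKM in either library, and genes were called at 2-fold. The pseudocount understates the fold of genes with low values. GENCODE release 29 (GRCh38) held 15531 of the identifiers and gave coordinates and exon overlaps, and the locus in the table contained each member's GENCODE gene. Promoters came from the RefSeq table (GRCh38.p14). All members, their relatives and the VGLL genes were named, with the 4 largest folds of each other list and the 2 genes on either side of ANKRD1 by fold. Any other gene of the signature, Hippo, coagulation and SRF lists is said to have been named after its values were seen. The members and lists were chosen with earlier results of these data known. Protein sequences were planned and not used here, and 1 gene of the coagulation list is not reported here. Python 3.11.15, pandas 2.3.3 and matplotlib 3.10.9 were used.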

Additional observations from a re-analysis of the deposited data

How the results depend on the processing

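No paired analysis was possible because each group held 1 library. The 10 alternatives that were planned changed the pseudocount, the filter, the threshold or the scaling, or left out genes at 0. The plain ratio without a pseudocount and the same sum at the FPKM scale were added after seeing the data. The planned scaling to the same sum raises both libraries to the TPM scale, which also makes the pseudocount smaller relative to the values. The 4 higher member calls held under all 12 except the 4-fold threshold, which kept ANKRD1 and F3. The log2 fold ran from 2.55 to 2.71 for ANKRD1, from 2.22 to 2.45 for F3, from 1.79 to 2.19 for WWC1, from 1.11 to 1.24 for CYR61, from -0.88 to -0.75 for WWTR1 and from -0.70 to -0.58 for CTGF. YAP1 ran from -0.06 to 0.06. The members' median was 0.55 with a filter of 5 FPKM, which leaves out AMOTL1, and 0.26 at the same sum, as TPM or at the FPKM scale, where the median of all tested genes was -0.06.

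At 1.5-fold, calls were 1 lower member (WWTR1), 2 higher relatives, 8 higher and 2 lower Hippo genes, 11 higher and 1 lower signature genes (8 and 1 without members), 3 lower SRF genes, and 2020 higher and 1674 lower genes in all. At 4-fold they were 2 higher members, 3 higher signature genes (1 without members), 0 coagulation genes, 0 relatives, 0 higher Hippo genes and 0 SRF genes, and 61 higher and 59 lower in all. Lower Hippo calls were 2 with a pseudocount of 0.1 or 0.5, at the same sum as TPM and by plain ratio, and higher ones 2 at the same median, upper quartile or sum at the FPKM scale. SRF genes had 1 lower call under each of the 4 scalings and 2 higher by plain ratio. All genes gave 1076 higher and 1029 lower with a pseudocount of 0.1, 1118 and 1025 by plain ratio, 282 lower with the filter of 5 FPKM and 790 higher and 1076 lower at the same sum as TPM, against 506 and 658 at the same sum at the FPKM scale, where the pseudocount keeps its relative size. The cause of the other differences was not tested. Unknown depth limits the low values most, such as those of AMOT, STRIP2 and TFPI2.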
